A study of Mus musculus with 26 samples.

Results

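EphA receptors form one class of the Eph family of receptor tyrosine kinases, and 9 genes that encode them (Epha1, Epha2, Epha3, Epha4, Epha5, Epha6, Epha7, Epha8 and Epha10) are described here. The set was selected on measured values, since an intronic region of Epha4 had one of the largest falls in enhancer probability between the culture states compared. The members were found by symbol among 21938 protein-coding genes, and ATAC-seq peaks and dynamic enhancer regions were taken from each gene and 200 kb to either side. These 9 loci do not overlap and span 5.64 Mb of GRCm38.

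The cells were E14 mouse embryonic stem cells, a line of one genotype throughout, plated and cultured for 48 h. In the last 4 h they received LIF, the cytokine that maintains pluripotency (mESC+), or 1 µM retinoic acid (RA) after LIF was withdrawn (mESC−). LIF withdrawal and RA were applied together, so their effects cannot be told apart. ATAC-seq had 1 library per state, the ChIP-seq behind the enhancer predictions 1 library per mark and state, and RNA-seq 3 libraries per state.

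Eph receptors sit in the cell membrane and bind ephrins on neighboring cells. EphA receptors mainly bind the ephrin-A ligands, which are held in the membrane by a lipid anchor, and Epha4 also binds ephrin-B ligands. Signals run into both of the touching cells and steer adhesion, repulsion and the sorting of cells at tissue boundaries, and in the nervous system the guidance of axons. Retinoic acid enters the nucleus, where it binds receptors that sit on paired copies of a short sequence, AGGTCA or close to it.

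Epha4 (ENSMUSG00000026235, chr1:77367185-77515088, minus strand, 147.904 kb) held 2 dynamic regions, both in the intron between exons 3 and 4 of its transcript with the most exons. The wider region, chr1:77450401-77458300, spanned 7900 bp with its middle 60.7 kb into the gene, and CRUP scored it as an enhancer with a probability of 1 in mESC+, against 0 in mESC−. The second region, chr1:77472801-77474400, spanned 1600 bp with its middle 41.5 kb into the gene, with probabilities of 0.941 and 0.099. CRUP combines a pair of random forests that read 3 histone marks (H3K4me1, H3K4me3 and H3K27ac) in 100-bp bins. The dynamic list held 327 such regions, of which 186 were active in mESC+ only (cluster 1) and 141 in mESC− only (cluster 2). Of the 186, 2 had a probability of 1 in mESC+, and 11, the Epha4 region among them, spanned at least 7900 bp. These probabilities chose the regions and are given as a description.

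The wider region carried 3 ATAC-seq peaks in each list, and each of the 3 in mESC+ overlapped one in mESC−. The 300 bp around the mESC+ summits, read from the RefSeq copy of GRCm38.p6, are shown because they are the accessible parts of a region whose predicted activity was lost. The fourth sequence is the summit window of the second intronic region that held motif matches, and the fifth is the peak 17.4 kb upstream of Epha4, the strongest mESC+ peak of the locus. Capitals mark matches to motifs searched on both strands. These were the POU octamer ATGCAAAT, the SOX sequences CATTGTT and CTTTGTT, and a STAT palindrome. The STAT matches found in the dynamic regions of the Epha loci read TTCCTGGAA or TTCCAGGAA. Also searched were the ESRRB motif TCAAGGTCA, which contains the AGGTCA half-site, a KLF motif and 3 direct repeats bound by RA receptors.
Epha4 wide region, peak 1 (chr1:77451591-77451890, plus strand): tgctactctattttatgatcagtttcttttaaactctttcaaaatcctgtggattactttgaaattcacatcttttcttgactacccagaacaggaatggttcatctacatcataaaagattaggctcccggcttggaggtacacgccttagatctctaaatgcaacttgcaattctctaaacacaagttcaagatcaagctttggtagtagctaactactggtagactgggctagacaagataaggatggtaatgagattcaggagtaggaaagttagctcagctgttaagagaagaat
Epha4 wide region, peak 2 (chr1:77453815-77454114, plus strand): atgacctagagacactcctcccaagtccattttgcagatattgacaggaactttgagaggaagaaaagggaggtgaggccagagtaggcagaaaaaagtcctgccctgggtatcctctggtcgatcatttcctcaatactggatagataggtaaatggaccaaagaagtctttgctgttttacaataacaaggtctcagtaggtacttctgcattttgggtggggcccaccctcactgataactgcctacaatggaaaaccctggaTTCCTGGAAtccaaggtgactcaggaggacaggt
Epha4 wide region, peak 3 (chr1:77456752-77457051, plus strand): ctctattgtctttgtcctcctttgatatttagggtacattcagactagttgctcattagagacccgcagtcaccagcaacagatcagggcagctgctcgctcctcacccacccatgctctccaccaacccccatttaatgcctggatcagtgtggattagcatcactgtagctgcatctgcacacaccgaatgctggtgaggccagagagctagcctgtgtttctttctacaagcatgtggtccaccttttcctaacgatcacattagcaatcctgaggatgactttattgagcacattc
Epha4 second region, peak 1 (chr1:77472651-77472950, plus strand): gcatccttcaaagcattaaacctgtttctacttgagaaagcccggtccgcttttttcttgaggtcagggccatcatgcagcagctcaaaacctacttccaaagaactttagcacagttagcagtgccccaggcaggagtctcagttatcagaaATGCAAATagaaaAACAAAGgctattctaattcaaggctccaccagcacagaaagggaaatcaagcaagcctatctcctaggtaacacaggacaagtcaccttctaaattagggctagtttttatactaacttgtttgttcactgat
Epha4 upstream peak (chr1:77532299-77532598, plus strand): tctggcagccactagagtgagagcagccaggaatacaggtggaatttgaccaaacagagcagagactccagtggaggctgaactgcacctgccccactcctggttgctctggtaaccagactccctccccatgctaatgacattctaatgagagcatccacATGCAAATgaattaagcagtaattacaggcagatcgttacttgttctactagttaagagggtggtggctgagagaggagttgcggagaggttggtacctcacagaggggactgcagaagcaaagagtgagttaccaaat

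In the wide region, the sole match in a summit window was the STAT sequence TTCCTGGAA at chr1:77454081-77454089, 116 bp from the summit of the middle peak. STAT proteins, among them the one that LIF activates, bind such palindromes. A STAT match, in any searched spelling, lay in 1.19% of the 163406 mESC+ summit windows and in 1.09% of the 141403 mESC− windows. Outside the summit windows, the region also held CTTTGTT at chr1:77455745-77455751 and AACAATG, which is CATTGTT read on the minus strand, at chr1:77455759-77455765. It further held TCAAGGTCA at chr1:77456089-77456097 and ATGCAAAT at chr1:77457190-77457197. The shares given here are for summit windows, and how often such matches fall in a region of this width was not counted. The matches outside the windows are therefore listed as a description only. In the second region, ATGCAAAT at chr1:77472804-77472811 began 3 bp from the mESC+ summit, and AACAAAG, which is CTTTGTT on the minus strand, followed at chr1:77472817-77472823. POU and SOX proteins can bind neighboring sites in stem cells as partners. The matches here lie on opposite strands, and whether such partners can bind this arrangement was not tested. The octamer lay in 2.78% of all mESC+ windows and CTTTGTT in 9.14%, and the share of windows with both was not counted. The upstream peak also held the octamer, at chr1:77532460-77532467, 11 bp from its summit. None of the 3 direct repeats (AGGTCA or AGTTCA spaced by 1, 2 or 5 bases) matched in either intronic region. They were rare everywhere, in 0.113%, 0.146% and 0.0838% of mESC+ windows, and the absence of a match says only that these letters are not in the sequence. A match is a string of letters and does not show that a protein was bound.

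All 3 peaks of the wide Epha4 region were called in both states, while the enhancer probability went from 1 to 0. The middle peak had a fold enrichment of 6.25 in mESC+ and 6.54 in mESC−. The peak nearest the gene start had 9.20 in mESC+ and 6.92 in mESC−, a ratio of 0.753, with both summits at the same base. The peak farthest from the start had 6.49 in mESC+ and 5.18 in mESC−, a ratio of 0.798. Thus 2 of the 3 peaks had lower values in mESC− and 1 had a higher value. Fold enrichment is the height of a summit over the local background of the same library, and with 1 library per state these differences have no replicate check and no test.

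Ratios were centered on the median over all 120853 shared mESC+ peaks, which was −0.09 on the log2 scale. After centering, the log2 ratios (mESC− over mESC+) of the 3 peaks were −0.24, 0.15 and −0.32 in order of coordinate, with a median of −0.24. They ranked at the 23.1, 68.1 and 16.2 percentile of all shared peaks. By their rank within their own list, the same peaks stood at the 48.6 and 26.1, the 46.9 and 50.9, and the 72.4 and 53.7 percentile in mESC+ and mESC−. The −log10 p was lower in mESC− at all 3, with 9.05 against 18.1, 13.0 against 17.1 and 14.5 against 30.03. Among 19939 shared peaks whose fold enrichment differed by at most 5%, the −log10 p was 0.769 lower in mESC− by the median, and the part of depth in these differences was not tested.

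In the second Epha4 region, the fold enrichment was 8.53 in mESC+ and 9.99 in mESC− at the peak with the octamer, and 8.89 and 8.98 at the other peak. Both centered log2 ratios were above 0, at 0.32 and 0.10. Over both intronic regions, 2 of 5 peaks had a lower and 3 a higher fold enrichment in mESC−. Over all 186 cluster 1 regions, 263 shared peaks had a median centered log2 ratio of 0.04, with quartiles at −0.16 and 0.23, and 43.0% of them lay below 0. Over the 141 cluster 2 regions, 148 shared peaks had a median of 0.06, with quartiles at −0.16 and 0.38, and 42.6% of them lay below 0. Peaks found in 1 list alone have no ratio and are not in these values. The paper reports, from ATAC-seq read counts over the regions rather than called peaks, a trend that followed the predicted activity in both clusters.

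**Figure D1:**
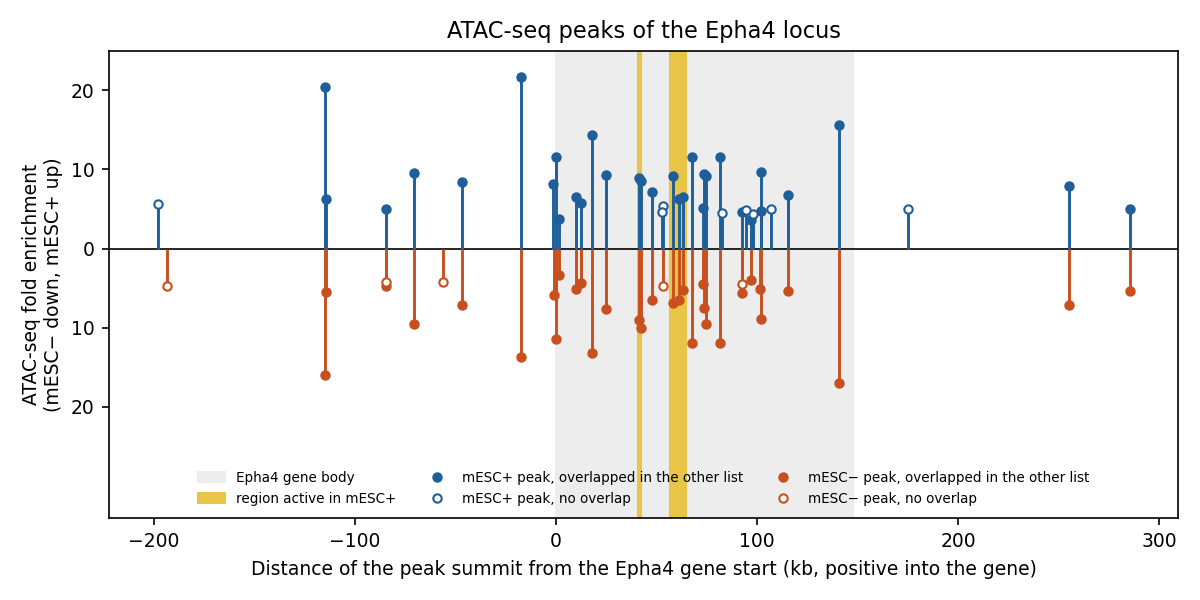
ATAC-seq peaks of the Epha4 locus, with the distance of the summit from the gene start in kb on the horizontal axis and fold enrichment on the vertical axis, mESC+ upward and mESC− downward. Filled points overlap a peak of the other list, open points do not, grey marks the gene and yellow its 2 dynamic regions, where all 5 mESC+ peaks have a counterpart in mESC−.

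The Epha4 locus as a whole held 40 mESC+ peaks, 29 of them in the gene, and 37 mESC− peaks, 25 of them in the gene. Of the mESC+ peaks, 32 overlapped a mESC− peak (80.0%, exact Clopper-Pearson 95% interval 64.4 to 90.9%), and 32 of the mESC− peaks overlapped a mESC+ peak (86.5%, 71.2 to 95.5%). These intervals cover counting error only. Both contain the share over all peaks of the same list, 73.9% in mESC+ and 85.9% in mESC−. The 8 peaks of mESC+ without a counterpart were weak, with fold enrichments between 4.42 and 5.62, and the 5 of mESC− lay between 4.15 and 4.77. Of the 32 shared peaks, 19 had a centered log2 ratio below 0, with a median of −0.05 and a range from −0.58 to 0.37.

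The lowest of these ratios belonged to the strongest mESC+ peak. The upstream peak, chr1:77532292-77532643, had a fold enrichment of 21.7 in mESC+ and 13.6 in mESC−, a ratio of 0.628. Its centered log2 ratio of −0.58 lay at the 4.76 percentile of all shared peaks, lower than any peak of the dynamic intronic regions, although it overlaps no dynamic region. The next strongest peak, 115 kb upstream, had 20.4 in mESC+ and 15.9 in mESC−. The third, 140.8 kb into the gene, had 15.7 in mESC+ and 16.9 in mESC−. At the promoter, the values were 11.6 and 11.4, while a peak 1.3 kb upstream of the start had 8.20 and 5.88. The promoter value thus differed by a ratio of 0.982 and that of its upstream neighbor by 0.717.

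Of the 9 members, 2 had a row in the deposited RNA-seq table, Epha4 and Epha2, against 9.04% of all protein-coding genes (1984 of 21938). Epha4 had a mean normalized count of 3062 over the 6 libraries of both states, or 380.2 per kb of exon. Epha2, a receptor best known from epithelia and from early embryonic cells, had 8195, or 1753 per kb of exon. Per length, the level of Epha2 was thus above that of Epha4. Epha1, Epha3, Epha5, Epha6, Epha7, Epha8 and Epha10 were not listed. The table holds 2189 genes and no values per library, so a missing row does not give a level, and the spread between replicates cannot be stated. Its columns of fold change and p-value are the authors' own comparison and were not used, so no direction is given for Epha4 or Epha2. In such bulk data, fewer cells that express a gene and less RNA per cell cannot be told apart.

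Of the sister receptors, 2 had dynamic regions in their loci and 6 had none. With Epha4, 3 of 9 members had at least 1 region within 200 kb, against 7.9% of protein-coding genes, and the 6 regions amounted to 1.06 per Mb, against 0.120 per Mb in the genome. Epha4 was the only member with a cluster 1 region inside the gene. Such a region lay in 0.374% of protein-coding genes, and in 2.32% of the 1511 genes at least as long as Epha4. Because the set was chosen for a region of Epha4, the 3 of 9, the 1.06 per Mb and these cluster 1 shares are printed for scale. They are not read as a result about the family. The 4 regions in the other loci were all of cluster 2, active in mESC−, and a cluster 2 region lay within 200 kb of 4.56% of protein-coding genes.

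In the Epha2 locus (ENSMUSG00000006445, chr4:141301240-141329384, plus strand), the region nearest the gene was chr4:141340801-141341300, 11.4 kb past its end. It spanned 500 bp, lay in no gene, and had probabilities of 0 in mESC+ and 0.794 in mESC−. Neither list had a peak in it. The gene start nearest to it was that of Fam131c, at 26.9 kb, which also had a row in the RNA-seq table. The other region, chr4:141113901-141115100, lay inside Szrd1, 186.1 kb from Epha2, with probabilities of 0.0096 and 0.883. Its 2 peaks were lower in mESC−, where the probability was higher, with fold enrichments of 5.31 in mESC+ and 4.88 in mESC− at one and 5.33 and 3.67 at the other.

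The Epha8 locus held chr4:136761701-136766500 and chr4:136776101-136777700, both of which lie inside Ephb2, 162.9 and 151.7 kb from Epha8. Ephb2 encodes a receptor of the B class and had a row in the RNA-seq table, with a mean normalized count of 776. The probability was 0.0098 in mESC+ and 0.891 in mESC− in the wider region, of 4800 bp, and 0 and 0.990 in the narrower one, of 1600 bp. In the narrower region, the fold enrichment was 5.10 in mESC+ and 10.7 in mESC− at one peak, and 4.68 and 5.79 at the other. The first of these had the highest centered log2 ratio of the 6 regions, at 1.16, and its mESC− window is shown because both accessibility and probability were higher in mESC− there. No searched motif matched in this window. Outside the summit windows, the narrower region held the STAT sequence TTCCAGGAA at chr4:136776131-136776139, and the frequency of such matches in whole regions was not counted. The window of its other peak held a KLF match, CCACACCC at chr4:136777090-136777097.
Ephb2 intragenic region, peak higher in mESC− (chr4:136776606-136776905, plus strand): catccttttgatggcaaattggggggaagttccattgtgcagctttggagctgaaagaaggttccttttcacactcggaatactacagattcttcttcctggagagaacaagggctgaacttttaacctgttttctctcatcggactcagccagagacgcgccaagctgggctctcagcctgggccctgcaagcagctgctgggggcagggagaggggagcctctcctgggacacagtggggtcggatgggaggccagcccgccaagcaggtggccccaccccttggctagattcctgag
In the wider region, the fold enrichment was 6.75 in mESC+ and 7.67 in mESC− at one shared peak, and 11.6 and 7.64 at the other, so the shared peaks differed in opposite directions within 1 region. A further peak, with a fold enrichment of 3.45, was found in mESC+ alone. The member region farthest from its gene was the one in Szrd1, at 186.1 kb, and the closest region beyond the limit of 200 kb was chr4:141672301-141681100, 342.9 kb from Epha2, with probabilities of 0 and 0.970.

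**Figure D2:**
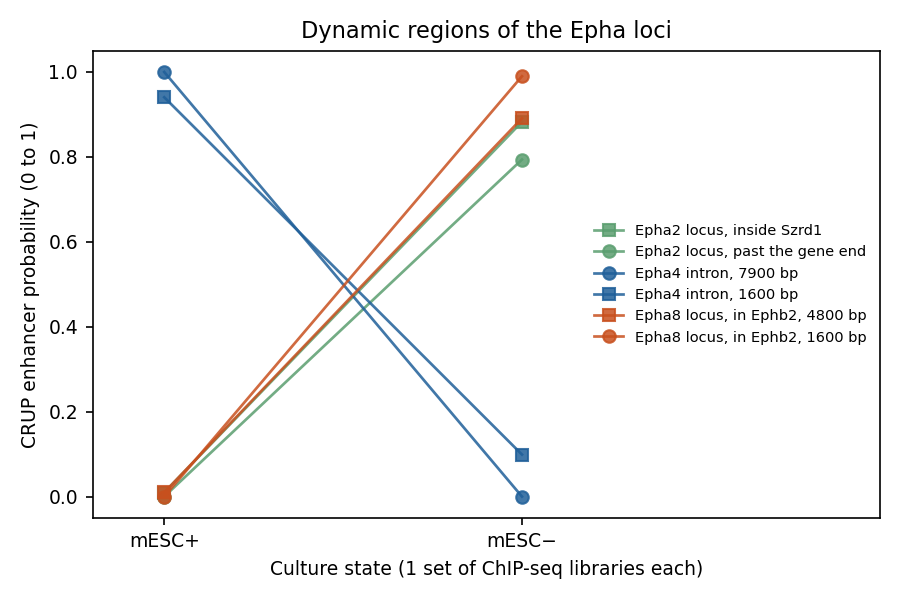
CRUP enhancer probability, from 0 to 1, of the 6 dynamic regions of the Epha loci in mESC+ and mESC−, with 1 line per region. Both Epha4 regions are higher in mESC+ (1 and 0.941, against 0 and 0.099), and the 4 regions of the Epha2 and Epha8 loci are higher in mESC−, at 0.794 to 0.990.

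Across all 9 loci, 380 mESC+ peaks and 327 mESC− peaks were found. Without a counterpart were 102 mESC+ peaks (26.8%, 95% interval 22.5 to 31.6%), against 26.1% of all mESC+ peaks, and 45 mESC− peaks (13.8%, 10.2 to 18.0%), against 14.1% of all mESC− peaks. Both shares lay near the background. Peaks found in 1 list alone were weaker than shared ones, with median fold enrichments of 4.95 against 7.66 in mESC+ and 5.29 against 6.82 in mESC−. The 278 shared mESC+ peaks had a median centered log2 ratio of 0.01.

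A ratio of at least 2-fold after centering was rare. Only 1 of the 278 was lower in mESC− by this much, against 0.42% of all shared peaks, and it lay 139.9 kb from the start of Epha2, with fold enrichments of 10.5 and 4.37 and a centered log2 ratio of −1.18. Higher by this much were 2, against 1.25% of all shared peaks. They were the peak in Ephb2 and one 306.8 kb from the start of Epha7, beyond the gene end, with fold enrichments of 5.05 and 13.6 and a centered log2 ratio of 1.52. No peak of the Epha1, Epha3, Epha4, Epha5, Epha6 or Epha10 loci passed 2-fold in either direction. The median centered ratio of a locus ranged from −0.05 at Epha4 to 0.16 at Epha7.

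**Figure D3:**
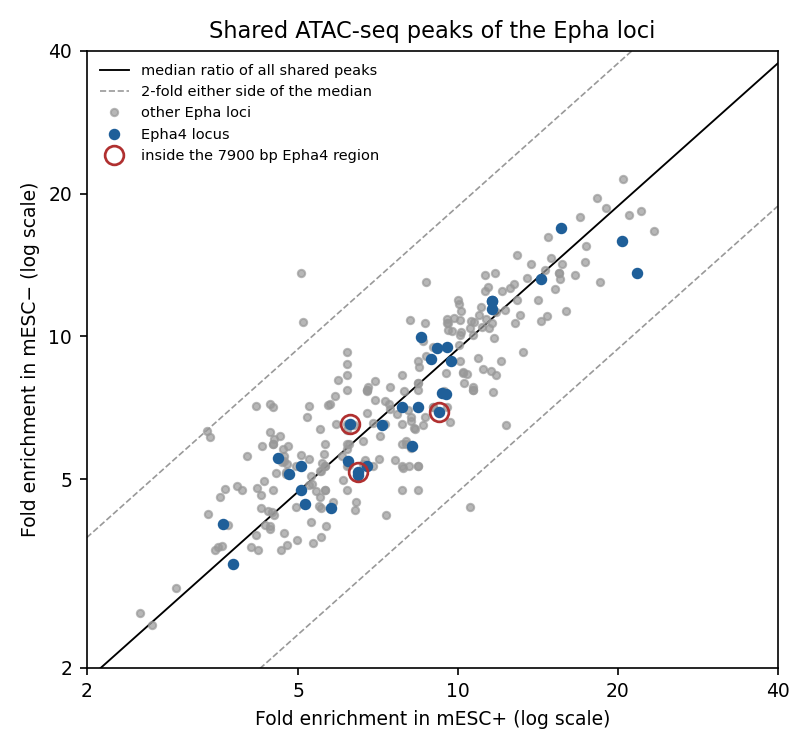
Fold enrichment of shared ATAC-seq peaks of the Epha loci in mESC+ (horizontal) and mESC− (vertical), both on log scales, with the median ratio of all shared peaks as a solid line and 2-fold either side of it dashed. The Epha4 peaks (blue), including the 3 of the wide intronic region (circled), lie between the dashed lines, and 3 peaks of other loci lie outside them.

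At the promoters, 8 of 9 members had a peak within 1 kb of the gene start in both lists, against 67.7% of protein-coding genes in mESC+ and 66.4% in mESC−. Of the 7 receptors without a row in the RNA-seq table, 6 had a promoter peak in both lists. Epha3 had the strongest promoter peak, with a fold enrichment of 14.8 in mESC+ and 16.2 in mESC−. Epha6 followed in mESC+ with 13.1, and had 11.1 in mESC−. This strongest Epha6 peak lay upstream of the start, near the edge of the 1 kb window. Closer to the Epha6 start, weaker mESC+ peaks of 8.67 and 5.20 overlapped the same mESC− peak, of 6.77. Their centered log2 ratios were −0.27 and 0.47, so the peaks of this promoter differed in direction. Epha1 had 10.2 and 8.42, and Epha5 had 10.0 and 11.9. Epha7 had 11.1 and 11.5, Epha2 had 8.69 and 9.11, and Epha10 had 10.7 in both lists. After centering, the log2 ratio (mESC− over mESC+) of the strongest peak was above 0 at 6 promoters. It was below 0 at 2, Epha1 (−0.19) and Epha6 (−0.15), and the highest was 0.34 at Epha5. With 1 library each no order among the members can be tested.

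Epha8 was the exception, with no promoter peak in either list. Its promoter was the richest in G and C of the 9, with 84.3% over the 300 bases from 250 before to 50 after the RefSeq start and 56 CpG dinucleotides, against 54.7 to 67.0% and 10 to 30 at the others. Its gene nevertheless lay in an accessible neighborhood, with 12.2 mESC+ and 10.3 mESC− peaks per 100 kb. Epha8 sequences matched in RefSeq as those of all 9 members did, and none of the 9 promoters held a searched motif. Over all 32851 RefSeq promoters, the octamer lay in 1.74% and the STAT palindromes in 1.15%.

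**Figure D4:**
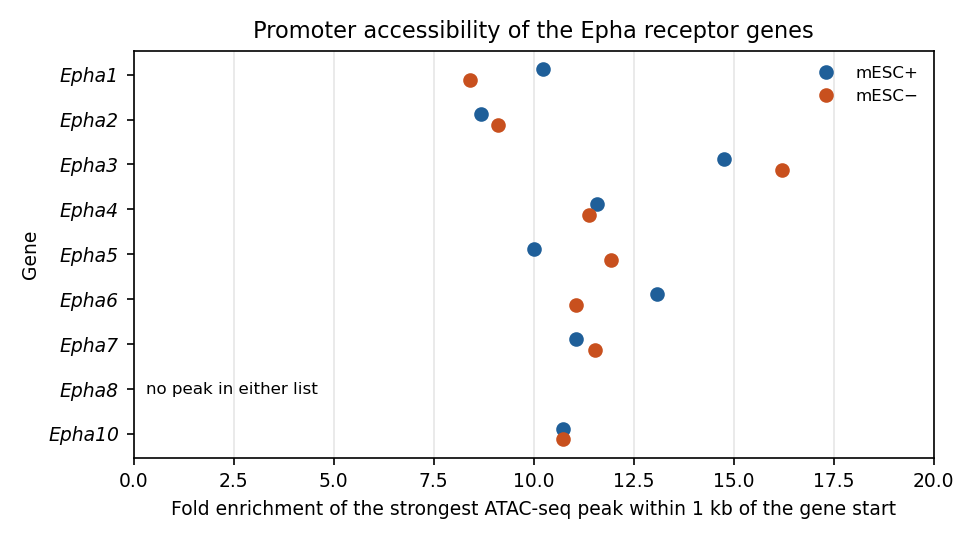
Fold enrichment of the strongest ATAC-seq peak within 1 kb of the start of each Epha gene (horizontal axis), in mESC+ and mESC−, 1 library each. The 8 genes with a peak lie between 8.42 and 16.2, and Epha8 has no peak in either list.

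The number of peaks per length differed widely between the loci. The most lay in the loci of Epha2, with 20.8 mESC+ and 16.1 mESC− peaks per 100 kb, and Epha10, with 15.6 and 14.6. The fewest lay in those of Epha3, with 1.94 in both states, Epha5, with 2.49 and 2.10, and Epha7, with 2.53 and 2.71. Epha4 had 7.30 and 6.75, Epha1 6.75 and 5.06 and Epha6 4.14 and 3.48, against 6.00 and 5.19 in the genome. Epha3 and Epha7 were the members without fewer peaks in mESC− than in mESC+.

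Of the ligands, 5 of 8 were listed in the RNA-seq table, against 9.04% of all protein-coding genes, with mean normalized counts per kb of exon of 38.4 for Efna3, 173 for Efna4, 33.3 for Efnb1, 114 for Efnb2 and 102 for Efnb3. These were all below the 380.2 of Epha4. Against the same 9.04%, 2 of 5 B receptors were listed, Ephb2 with 61.5 and Ephb3 with 117 per kb of exon. Of 21 effectors and partners of Eph receptors, 7 were listed against that background. Among them were the kinases Src with 323, Yes1 with 645 and Abl1 with 346 and the phosphatase gene Inppl1 with 546 per kb of exon. The remaining listed ones were Chn2, Arhgef15 and Sipa1l1. None of the genes of these 3 lists had a cluster 1 region within 200 kb. A region of either cluster lay within 200 kb of 7.9% of protein-coding genes. The share for cluster 1 alone was not counted, so this absence is not read as a result about these genes. Cluster 2 regions, present within 200 kb of 4.56% of protein-coding genes, lay near Efnb3 (probability 0 and 0.941), Ephb4 (0 and 0.761), Ephb2 and Anks1.

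The stem cell identity of the cultures could not be checked by which markers were listed, since a missing row gives no level. Of 8 stem cell markers, Sox2, Zfp42 and Klf4 were listed (again against 9.04% of protein-coding genes), with 8169, 18458 and 2847 mean normalized counts, and Sox2 had a cluster 1 region within 200 kb (0.883 in mESC+, 0 in mESC−). Pou5f1, Nanog, Esrrb, Tfcp2l1 and Dppa5a were not listed. Of 11 markers of other cell types, Gata6, Eomes and Thy1 were listed, with mean normalized counts of 54.1, 309 and 126. The listed share was 37.5% of the stem cell markers and 27.3% of the others, both above 9.04%. Promoter peaks did not separate the lists, with 7 of 8 stem cell markers (all but Esrrb) and 9 of 11 others in mESC+. The lists held 163484 mESC+ and 141465 mESC− peaks with median fold enrichments of 6.68 and 6.52, and the read depth of the libraries is unknown.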

How the data were processed

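Members, loci and gene lists were chosen with earlier results of these data known. For ATAC-seq, the authors mapped reads to GRCm38 with BWA, dropped duplicates (SAMtools) and ran MACS2 peak calling on either library alone (settings not given in the sources used here). The deposited lists give a fold enrichment, a ratio of the summit over local background, and −log10 p and −log10 q values. For ChIP-seq, the authors mapped reads with STAR 2.5.1b (the version per the submitters' processing notes) and derived an enhancer probability per state, a fraction, in CRUP. For RNA-seq, the authors deposited a DESeq2 table whose mean is a signal, counts divided by size factors and averaged over 6 libraries. It also holds their fold changes, standard errors, Wald statistics and p-values, and the region list their lowest p-value. These columns were not used.

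Peaks sharing at least 1 bp were counted as shared, and each mESC+ peak was paired with the mESC− peak it overlapped most. Log2 ratios were centered on the median of all pairs, and a centered ratio of 1 or more in size is called 2-fold. Genes and exons came from GENCODE M21, promoters from RefSeq (GRCm38.p6). All 9 members were named, with pathway genes that are listed or near a region, and peaks that lie in the Epha4 regions, at a member's start or among the 3 strongest of the Epha4 locus. Other peaks were named after their values were seen. Whole regions and other members' windows were searched for motifs after the values were seen. In simulated data, the functions gave the known answer in 13 of 13 checks. Nothing was tested between states, since each had 1 ATAC-seq library and 1 probability. The 10 ChIP-seq libraries of other targets were not used here. Scripts ran in Python 3.11.15 with pandas 2.3.3, pysam 0.24.0, SciPy 1.17.1, NumPy 2.4.6 and, for plots, matplotlib 3.10.9.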

Additional observations from a re-analysis of the deposited data

How the results depend on the processing

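Of 21 alternative settings, 14 were counted as leaving the value unchanged. The limits were its interval, 1.5 times for counts, or the range of the 3 peaks in the wide Epha4 region. Some outcomes were fixed in advance. Changing the gene background cannot alter the number of listed members, and the percentile settings are on another scale and could not count as unchanged. The count of 14 is therefore no measure of robustness. The number of dynamic regions fell from 6 to 2 with the gene body alone and to 3 with 100 kb on either side, since the regions of the Epha2 and Epha8 loci lie outside those genes. With a −log10 q of at least 10 in both lists, 92.3% of mESC− peaks had a mESC+ counterpart, against 86.2%. In the wide Epha4 region, the median log2 ratio of the 3 shared peaks was −0.24 with centering and −0.33 without. With a −log10 q of at least 10 in both lists, 2 of these peaks were left and their median was −0.09, closer to 0 but within the range of the 3. Its median change was −18.8 percentile points by fold enrichment and −23.5 by −log10 p. Over the Epha loci, the median of 0.01 turned to −0.0777 without centering, by the shift of all shared peaks. The share of all 55450 annotated genes listed in the RNA-seq table was 3.95%. No paired analysis was possible because per-library values are absent from the RNA-seq table, and for the same reason no replicate could be left out. Read depth is unknown, which limits what the lack of a peak in one list shows. The direction of each ATAC-seq ratio rests on 1 library per state.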

Other observations

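The strongest peaks found in 1 list alone both lay upstream of Epha8, the member without a promoter peak. In mESC+ it lay 27.4 kb upstream with a fold enrichment of 9.86, and in mESC− 107.1 kb upstream with 8.30. Both were above the median of the shared peaks of the Epha loci in their list (7.66 and 6.82).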
